A study of Rattus norvegicus with 12 samples.

Results

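Integrins and cadherins are the adhesion receptors that tie a cell to its matrix and to its neighbours. Their genes were taken from the deposited rat gene table by symbol, as names beginning Itga, Itgb with 1 digit or Cdh with a number, without Itga6 and Itgb4. This gave 46 of 30957 genes, made up of 16 integrin alpha, 7 integrin beta and 23 cadherin genes, and 22 of them had enough counts to be tested. Messenger RNA was sequenced from rat Schwann cells in 4 groups of 3 libraries: co-culture with tumour-associated macrophages that supernatant of MIA PaCa-2, a human pancreatic cancer line, had induced (MiaTAM), the same with supernatant of BxPC-3, another such line (BxTAM), co-culture with macrophages derived from monocytes and not so induced (MDM), and Schwann cells alone. The titles name Rsc96 for the cells alone, taken here as the immortalised rat line RSC96, while the table heads those columns HSC96 and the MDM columns PBMC. The MDM samples carry a treatment tag of untreated while their source name calls them co-cultured, and they were taken as co-cultures from the source name. The labels give no genotype, dose or culture time, nor the species that the macrophages came from. They do not say whether macrophages were removed before RNA was extracted, or that the 3 libraries of a group were separate cultures. The p-values therefore measure only the spread between these libraries, which may be technical.

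An integrin is a pair of 1 alpha and 1 beta subunit. The alpha subunit largely sets the ligand, such as laminin, collagen or the RGD sequence of fibronectin and vitronectin, and the beta tail binds talin and kindlin, which connect it to actin. In peripheral nerve, beta1 integrins hold Schwann cells to the laminins of their basal lamina and are needed for sorting and myelinating axons. Classical cadherins bind the same cadherin on the next cell and connect to actin through catenins, and N-cadherin holds Schwann cells to each other and to growing axons.

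Library totals ran from 16555215 to 21506669 counts. Levels of 1 gene across libraries are given as CPM, which scales counts by the TMM-adjusted library total, and levels of different genes are compared only as the authors' FPKM, which is also per length of the gene. Of 11 Schwann cell markers, Pmp22 and the neuregulin receptor gene Erbb3 were present, at 75.3 to 93.3 and 7.13 to 15.2 CPM on average per group. The defining lineage factor Sox10 had 1 count and S100b 43 counts in all 12 libraries together. Cdh19, a cadherin that marks Schwann cells and their precursors, had 0 counts, which allows a level of up to 0.0136 CPM over all libraries, for counting error only. The label of Schwann cells thus rests on few of its defining markers.

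The levels were dominated by a laminin receptor pair. Itgb1, the beta subunit shared by most matrix integrins, had 551 ± 27.4, 556 ± 12.02 and 466 ± 15.7 FPKM in MiaTAM, BxTAM and MDM co-cultures, against 527 ± 13.5 in cells alone (mean ± SD, n = 3 here and below). Itga3, whose product pairs with beta1 as a laminin receptor, had 553 ± 23.7, 496 ± 10.8 and 554 ± 18.1 FPKM in MiaTAM, BxTAM and MDM co-cultures, against 439 ± 9.19 in cells alone. Itga7, a second laminin-binding subunit known best from muscle, followed at 62.6 to 96.5 FPKM on average per group. Itgav, the RGD-binding subunit with the most beta partners, had group means of 61.5 to 70.4 FPKM, Itgb5 had 39.6 to 70.7 FPKM, and Itga5, of the fibronectin receptor, had 32.4 to 53.8 FPKM. Among cadherins, Cdh3 (P-cadherin) stood highest at 25.4 to 35.1 FPKM, before Cdh6 (K-cadherin), Cdh24 and Cdh2 (N-cadherin), with overall means of 19.8, 17.1 and 10.4 FPKM. The collagen-binding Itga1 and the leukocyte subunit Itgax had overall means of 8.83 and 7.60 FPKM.

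**Figure D1:**
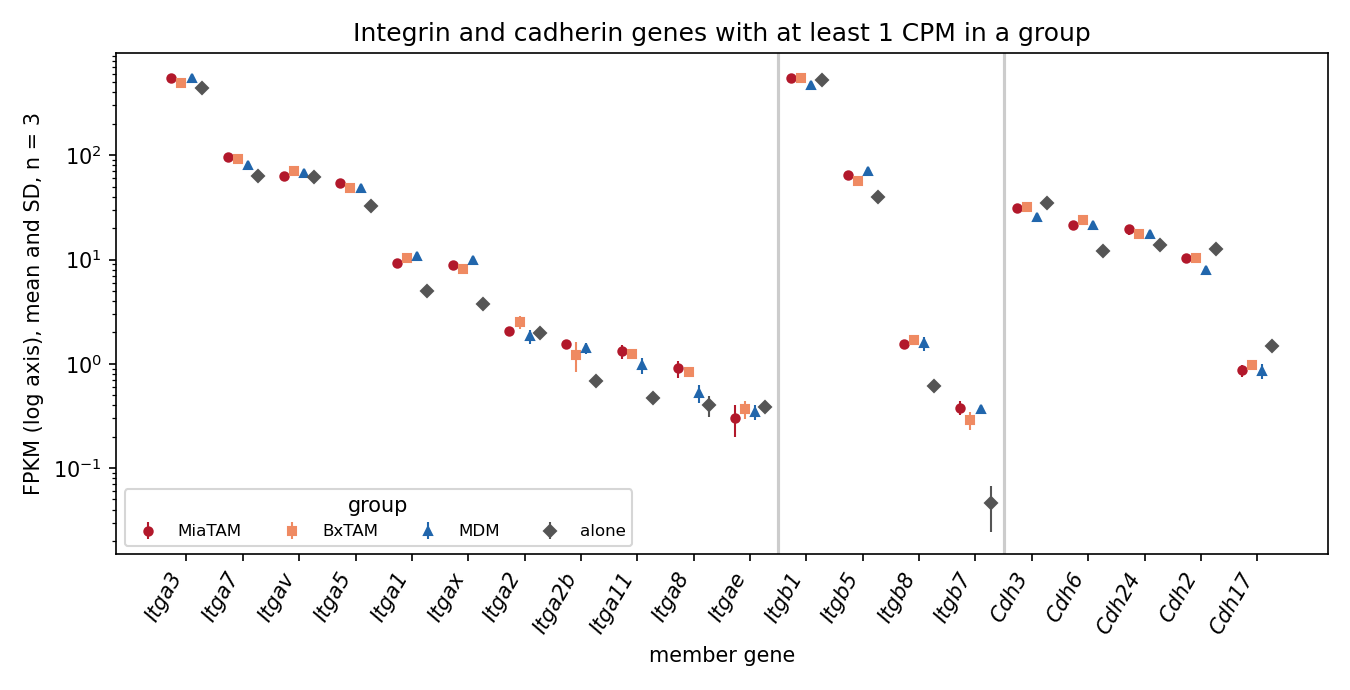
Mean FPKM (log axis) with SD over 3 libraries for the 20 member genes that reached 1 CPM in at least 1 group, with alpha subunits at left, beta subunits in the middle and cadherins at right. Itga3 and Itgb1 lie at 439 to 556 FPKM in every group, and Itgb7 in cells alone, at 0.0462 FPKM, is the lowest point drawn.

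Of the 46 genes, 26 stayed under 1 CPM in every group. They were 5 alpha genes (Itga4, Itga9, Itga10, Itgal and Itgam), 3 beta genes (Itgb2, Itgb3 and Itgb6) and 18 cadherin genes (Cdh1, Cdh4, Cdh5, Cdh7, Cdh8, Cdh9, Cdh10, Cdh11, Cdh12, Cdh13, Cdh15, Cdh16, Cdh18, Cdh19, Cdh20, Cdh22, Cdh23 and Cdh26). Of these, 9 had 0 counts in all 12 libraries, namely Itgb3, Cdh4, Cdh7, Cdh8, Cdh12, Cdh18, Cdh19, Cdh20 and Cdh26. Itgb3, the platelet and osteoclast beta subunit, is the usual partner of the Itga2b product, and Itga2b itself was present at 2.48 to 5.62 CPM on average per group. Cdh1 (E-cadherin) and Itgam were the 2 genes of the 26 that passed the count filter and were tested. With no filter on low counts, 15 further members with counts entered the fit. Of these 15, 3 were called in MiaTAM, 2 in BxTAM and 1 in MDM co-culture against cells alone. Against MDM co-culture 1 was called in MiaTAM and 0 in BxTAM, and 0 between the TAM co-cultures. Itgb2 was called in 3 comparisons, Itgb6 in 2, and Cdh15 and Cdh5 in 1 each, on 68, 65, 72 and 59 counts over all libraries. The share of all genes called in this fit was not counted, so these calls have no background beside them.

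Each co-culture was first set against cells alone, which asks what the presence of macrophages, induced or not, goes with in the Schwann cells. Most detected integrin genes were higher. Of 6 tested cadherin genes, 3 were called lower in each co-culture, and 2 were called higher in MiaTAM, 2 in BxTAM and 3 in MDM co-culture. By edgeR's quasi-likelihood test, 13 of 22 tested members were called higher and 3 lower in MiaTAM co-culture, against 31.4% and 33.7% of all 12360 genes tested (called means a Benjamini-Hochberg adjusted p under 0.05). Either direction took in 65.1%, 60.9% and 65.1% of all genes in MiaTAM, BxTAM and MDM co-cultures. In BxTAM co-culture 15 were called higher and 3 lower, against 30.0% and 30.9% of all genes. In MDM co-culture 14 were called higher and 4 lower, against 32.0% and 33.1% of all genes. At 2-fold or more, 6, 7 and 6 members were called in MiaTAM, BxTAM and MDM co-cultures, against 8.93%, 7.56% and 8.46% of all genes. The median log2 change of the tested members was 0.57 in MiaTAM, 0.56 in BxTAM and 0.41 in MDM co-culture, and that of all genes lay between -0.01 and 0.00 each time. These 3 comparisons share the same 3 libraries of cells alone, and Itgb7 is 1 of the higher calls in each, at 2-fold or more included. Itgb7 passed the count filter only through the co-culture libraries, where it is high, so its call is no support for a difference. Since the labels do not say whether macrophages were removed, a change in the share of a cell type and a change of RNA per cell cannot be told apart.

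**Figure D2:**
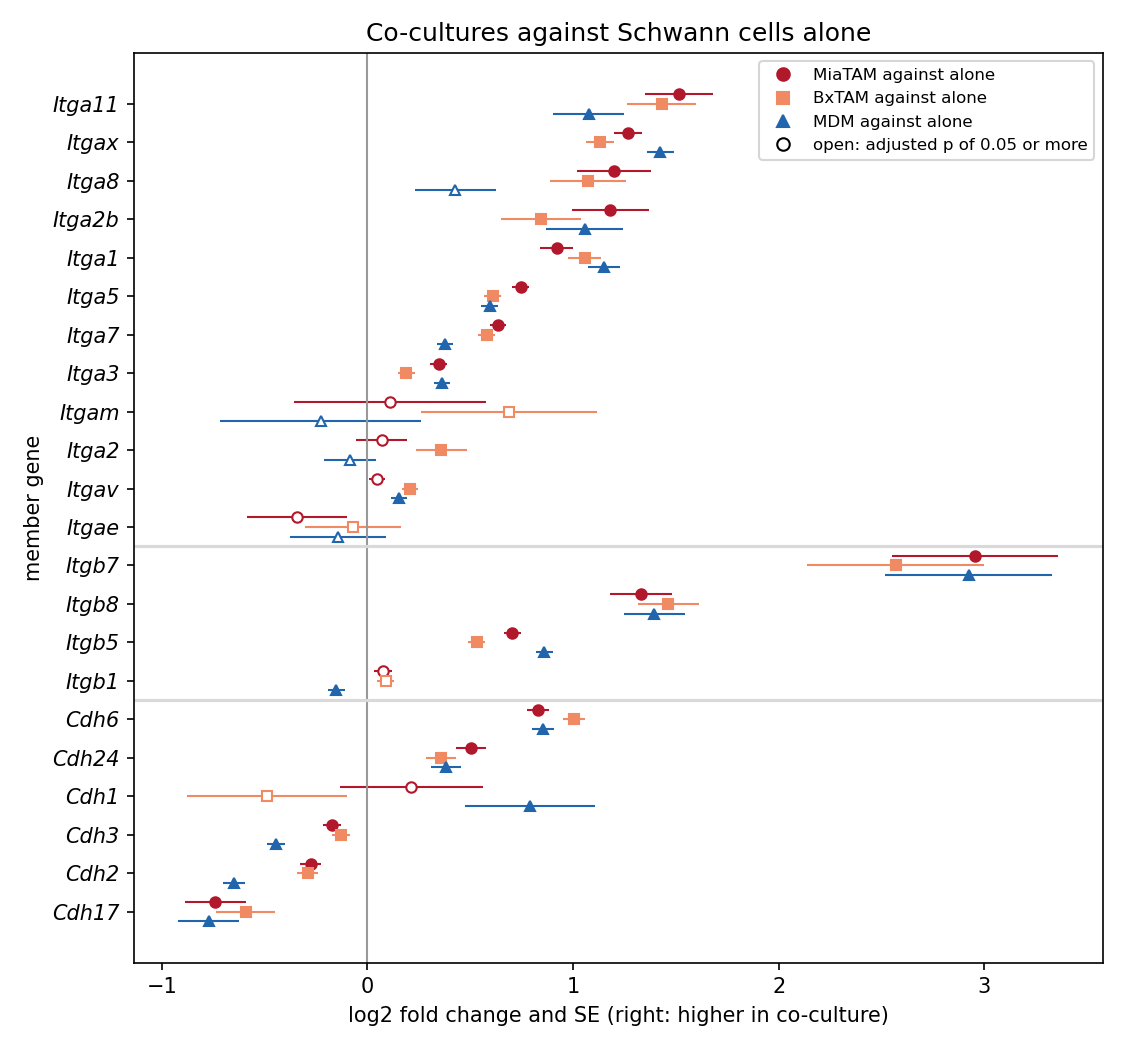
Log2 fold change with SE of the 22 tested members in MiaTAM, BxTAM and MDM co-cultures against cells alone (3 libraries each), with filled symbols for an adjusted p under 0.05. Alpha subunits are at the top, beta subunits in the middle and cadherins at the bottom. Symbols to the right are higher in co-culture, from Itgb7 at 2.57 to 2.96 down to Cdh17 at -0.77 to -0.59. Itgb7 entered the test only through the co-culture libraries.

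Laminin-binding alpha genes rose in all 3 co-cultures. Itga3 had 2884, 3094 and 2892 CPM in MiaTAM, 2718, 2599 and 2641 in BxTAM and 2862, 3072 and 3037 in MDM co-cultures, against 2348, 2353 and 2278 in cells alone. Every co-culture library lay above every library of cells alone, with log2 changes of 0.35 ± 0.04 in MiaTAM, 0.19 ± 0.04 in BxTAM and 0.36 ± 0.04 in MDM co-cultures (adjusted p = 1.3e-07 to 4.3e-04). Itga7 had 552, 591 and 584 CPM in MiaTAM, 557, 575 and 532 in BxTAM and 474, 487 and 485 in MDM co-cultures, against 375, 379 and 359 in cells alone. The groups did not overlap with cells alone here either, and the log2 changes were 0.63 ± 0.04 in MiaTAM, 0.58 ± 0.04 in BxTAM and 0.38 ± 0.04 in MDM co-cultures (adjusted p = 2.3e-11 to 6.4e-08). Against these rises the common partner Itgb1 moved little. Itgb1 had 2044, 1895 and 2103 CPM in MiaTAM, 2056, 2067 and 1978 in BxTAM and 1772, 1684 and 1709 in MDM co-cultures, against 1943, 1846 and 1947 in cells alone. It fell by 0.15 ± 0.04 on the log2 scale in MDM co-culture (adjusted p = 0.00394). In MiaTAM and BxTAM co-cultures its log2 differences from cells alone were 0.08 ± 0.04 and 0.09 ± 0.04, and neither was called (adjusted p = 0.126 and 0.0747). All 3 BxTAM libraries lay above cells alone, while MiaTAM libraries overlapped them. The MiaTAM value passed without MiaTAM library 2 (adjusted p = 0.0160) and the BxTAM value without cells-alone library 3 (adjusted p = 0.0429). The BxTAM value also passed when only the 6 libraries compared were fitted (adjusted p = 0.0289) and in DESeq2 (adjusted p = 0.0381).

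RGD-binding alpha genes divided. Itga5 had 226, 244 and 239 CPM in MiaTAM, 216, 216 and 214 in BxTAM and 202, 222 and 215 in MDM co-cultures, against 144, 140.4 and 139 in cells alone. Itga5, the fibronectin receptor subunit, was higher in every co-culture library, by log2 0.75 ± 0.04 in MiaTAM, 0.61 ± 0.04 in BxTAM and 0.60 ± 0.04 in MDM co-cultures (adjusted p = 2.7e-12 to 9.4e-11). Itgav had 208, 209 and 221 CPM in MiaTAM, 233, 245 and 236 in BxTAM and 233, 232 and 222 in MDM co-cultures, against 210.4, 206 and 201 in cells alone. Its log2 change was 0.21 ± 0.04 (adjusted p = 9.4e-05) in BxTAM and 0.15 ± 0.04 (adjusted p = 0.00153) in MDM co-culture, while the MiaTAM value of 0.05 ± 0.04 was not called (adjusted p = 0.309) and its libraries overlapped those of cells alone. Itga8 had 4.901, 4.52 and 6.45 CPM in MiaTAM, 5.04, 4.48 and 5.05 in BxTAM and 3.75, 2.56 and 3.03 in MDM co-cultures, against 2.897, 1.89 and 2.18 in cells alone. Itga8, whose product pairs with beta1 to bind nephronectin, rose by log2 1.20 ± 0.18 in MiaTAM and 1.07 ± 0.18 in BxTAM co-cultures (adjusted p = 7.8e-06 and 4.0e-05). In MDM co-culture, where its libraries overlapped cells alone, the log2 value of 0.43 ± 0.20 was not called (adjusted p = 0.065), and it passed without cells-alone library 1 or MDM library 2 (adjusted p = 0.0192 to 0.0331). Itga2b had 6.101, 5.12 and 5.64 CPM in MiaTAM, 4.02, 3.28 and 6.04 in BxTAM and 4.73, 5.96 and 4.85 in MDM co-cultures, against 2.44, 2.55 and 2.45 in cells alone. Itga2b, the platelet alpha subunit, changed by log2 1.18 ± 0.19 in MiaTAM, 0.84 ± 0.19 in BxTAM and 1.06 ± 0.19 in MDM co-cultures (adjusted p = 1.3e-05 to 8.4e-04), with BxTAM library 3 well above its 2 fellows.

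Of the 3 tested collagen-binding alpha genes, Itga1 and Itga11 rose in all 3 co-cultures. Itga1 had 40.7, 34.6 and 40.97 CPM in MiaTAM, 43.7, 39.96 and 44.3 in BxTAM and 48.1, 45.2 and 43.3 in MDM co-cultures, against 22.2, 20.8 and 18.6 in cells alone. Itga1, of a receptor for basement membrane collagen, was higher in every co-culture library, with log2 changes of 0.92 ± 0.08 in MiaTAM, 1.06 ± 0.08 in BxTAM and 1.15 ± 0.08 in MDM co-cultures and no overlap with cells alone (adjusted p = 7.5e-11 to 3.0e-09). Itga11 had 6.99, 5.24 and 5.96 CPM in MiaTAM, 5.58, 6.38 and 5.27 in BxTAM and 5.304, 3.75 and 4.43 in MDM co-cultures, against 2.33, 2.19 and 1.86 in cells alone. Itga11, of a receptor for fibrillar collagens, changed by log2 1.52 ± 0.17 in MiaTAM, 1.43 ± 0.17 in BxTAM and 1.08 ± 0.17 in MDM co-cultures (adjusted p = 8.8e-08 to 1.6e-05), again without overlap. Itga2 had 6.49 to 10.8 CPM over all 12 libraries, and only the BxTAM value was called, at log2 0.36 ± 0.12 (adjusted p = 0.0148). The groups overlapped, and it missed the threshold without cells-alone library 3 or BxTAM library 2 or 3 (adjusted p = 0.0575 to 0.0828). The MiaTAM and MDM values of Itga2 were 0.07 ± 0.12 and -0.08 ± 0.13 on the log2 scale (adjusted p = 0.65 and 0.577). Itga10 had 29 counts in all. The Itga1 gene encloses Pelo, a ribosome rescue factor gene on the same strand in RefSeq, so reads of the overlap cannot be assigned with certainty. Pelo averaged 80.2 ± 1.34 CPM in MiaTAM, 74.8 ± 4.002 in BxTAM and 85.8 ± 2.29 in MDM co-cultures, against 59.1 ± 4.18 in cells alone. Beside these genes, the summed fibroblast markers, led by Col1a1 and Pdgfra, stood at 162 to 171 CPM in MiaTAM, 146 to 165 in BxTAM and 176 to 185 in MDM co-cultures, against 109 to 112 in cells alone. Of the 6 fibroblast markers, Dcn, Lum and Col1a2 had 0 counts in all libraries, and the part of such cells in these changes was not tested. The higher sum was that of Col1a1, at 74.9, 50.7 and 73.6 CPM on average in MiaTAM, BxTAM and MDM co-cultures, against 16.9 CPM in cells alone. Pdgfra averaged 91.4, 103.9 and 106.8 CPM in MiaTAM, BxTAM and MDM co-cultures, against 93.6 CPM in cells alone, and Col3a1 had 17 counts in all.

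**Figure D3:**
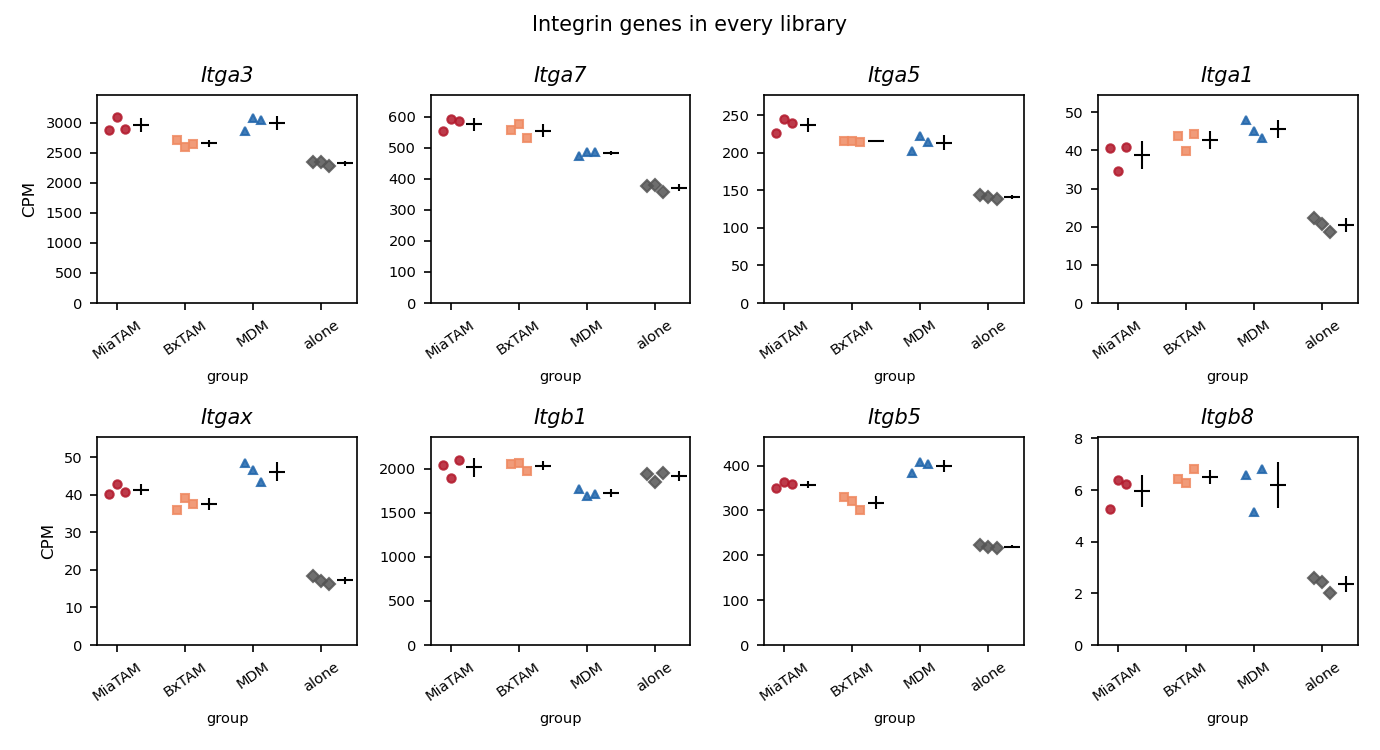
CPM of 8 integrin genes in each library (symbols), with the mean and SD of each group (black, n = 3), on axes that start at 0. Itgax, Itga1, Itgb5 and Itgb8 lie higher in all 9 co-culture libraries than in the 3 of cells alone, while Itgb1 stays between 1684 and 2103 CPM.

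Itgb5 and Itgb8 rose in all 3 co-cultures. Itgb5 had 349.6, 363 and 359.5 CPM in MiaTAM, 329.5, 321 and 301 in BxTAM and 384, 409 and 403 in MDM co-cultures, against 224, 219 and 216 in cells alone. Itgb5, which pairs with alphav as a vitronectin receptor, changed by log2 0.70 ± 0.04 in MiaTAM, 0.53 ± 0.04 in BxTAM and 0.86 ± 0.04 in MDM co-cultures (adjusted p = 2.6e-13 to 5.6e-10). Itgb8 had 5.27, 6.39 and 6.23 CPM in MiaTAM, 6.44, 6.27 and 6.81 in BxTAM and 6.57, 5.17 and 6.81 in MDM co-cultures, against 2.61, 2.45 and 2.02 in cells alone. Itgb8, whose pair with alphav binds and activates latent TGF-beta, changed by log2 1.33 ± 0.15 in MiaTAM, 1.46 ± 0.15 in BxTAM and 1.40 ± 0.15 in MDM co-cultures (adjusted p = 3.7e-08 to 1.5e-07). Itgb7 had 0.834, 1.15 and 1.08 CPM in MiaTAM, 0.912, 0.805 and 0.604 in BxTAM and 0.922, 1.02 and 1.03 in MDM co-cultures, against 0.0568, 0.153 and 0.1597 in cells alone. Itgb7, a lymphocyte subunit that pairs with alpha4 or alphaE, had 55, 42 and 56 counts in the MiaTAM, BxTAM and MDM co-cultures and 7 in cells alone. Its co-culture libraries lay above cells alone, at the edge of detection, and its fitted log2 values of 2.96 ± 0.40 in MiaTAM, 2.57 ± 0.43 in BxTAM and 2.92 ± 0.40 in MDM co-cultures are given as a description with no test. No rise of a partner was called beside it. Itga4 had 11 counts in all libraries, and Itgae had 1.02 to 2.08 CPM with no called change in any comparison (adjusted p of at least 0.221 against cells alone). The Itgae value in MiaTAM co-culture, log2 -0.34 ± 0.24, passed the threshold without MiaTAM library 1 (adjusted p = 0.0424). Itgae overlaps 5 other genes in the table, so its counts are uncertain.

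Itgax, which encodes the CD11c subunit of complement receptor 4, was the leukocyte integrin gene with the highest level. Itgax had 40.2, 42.95 and 40.9 CPM in MiaTAM, 35.9, 39.1 and 37.7 in BxTAM and 48.4, 46.7 and 43.4 in MDM co-cultures, against 18.3, 16.9 and 16.3 in cells alone. It was present in cells grown without macrophages and higher in every co-culture library, by log2 1.27 ± 0.07 in MiaTAM, 1.13 ± 0.07 in BxTAM and 1.43 ± 0.07 in MDM co-cultures (adjusted p = 2.4e-13 to 1.3e-11). Its beta2 partner was close to absent. Itgb2 had 0.365, 0.723 and 0.542 CPM in MiaTAM, 0.644, 0.287 and 0.275 in BxTAM and 0.346, 0.0568 and 0.14 in MDM co-cultures, against 0.227, 0.102 and 0.0532 in cells alone. It did not pass the count filter, and with no filter it was called higher in MiaTAM and BxTAM co-cultures than in cells alone, at log2 2.04 ± 0.61 and 1.64 ± 0.64 (adjusted p = 0.00381 and 0.0331). Itgam (CD11b), which also pairs with beta2, did not pass in any comparison. Itgam had 0.261, 0.241 and 0.705 CPM in MiaTAM, 0.376, 0.632 and 0.824 in BxTAM and 0.404, 0.284 and 0.2799 in MDM co-cultures, against 0.341, 0.306 and 0.479 in cells alone. Itgal, the lymphocyte subunit of that group, had 1 count in all. The Itgam gene model encloses the whole of Itgax on the same strand, and shared exons cannot be split with certainty. Of 21 macrophage markers in the table, 17 stayed under 1 CPM in every group, among them Ptprc with 3 counts and Aif1 with 8 in all libraries, and Tyrobp, C1qa and Marco had 0. The 4 above 1 CPM were Cd68, Cd14, Csf1r and Lcp1, and the summed list stood at 23.7 to 24.8 CPM in MiaTAM, 20.2 to 22.3 in BxTAM and 17.1 to 18.6 in MDM co-cultures, against 9.74 to 11.5 in cells alone. The part of macrophage RNA in the rise of Itgax was not tested, and Itgax in cells alone was 16.3 to 18.3 CPM. Of 7 lymphocyte markers, Lck alone reached 1 CPM, Cd3d had 0 counts, and the sum stood at 1.46 to 1.897 CPM in MiaTAM, 1.32 to 1.61 in BxTAM and 0.852 to 1.21 in MDM co-cultures, against 0.909 to 1.12 in cells alone.

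The promoters of Itgax, Itgb8 and Cdh6 are shown because these genes rose in all 3 co-cultures and represent an alpha subunit, a beta subunit and a cadherin. Each runs from 250 bases before to 50 bases after the start of the gene in RefSeq, build GRCr8, and is written 5′ to 3′ on the strand of the gene, with capitals for matches to 4 motifs searched on both strands.
Itgax (chr1:192149799-192150098, plus strand): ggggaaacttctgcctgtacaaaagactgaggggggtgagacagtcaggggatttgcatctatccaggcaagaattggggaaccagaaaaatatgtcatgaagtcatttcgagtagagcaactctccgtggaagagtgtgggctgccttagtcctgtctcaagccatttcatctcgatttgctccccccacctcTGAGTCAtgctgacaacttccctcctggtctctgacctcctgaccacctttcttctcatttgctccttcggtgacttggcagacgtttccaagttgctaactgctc
Itgb8 (chr6:146351196-146351495, minus strand): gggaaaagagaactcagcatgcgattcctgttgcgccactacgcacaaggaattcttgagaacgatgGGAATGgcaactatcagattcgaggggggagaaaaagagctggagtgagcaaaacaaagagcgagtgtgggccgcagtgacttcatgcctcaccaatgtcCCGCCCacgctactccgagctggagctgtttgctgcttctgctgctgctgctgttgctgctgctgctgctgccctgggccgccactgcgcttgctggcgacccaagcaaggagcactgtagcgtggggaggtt
Cdh6 (chr2:63952238-63952537, minus strand): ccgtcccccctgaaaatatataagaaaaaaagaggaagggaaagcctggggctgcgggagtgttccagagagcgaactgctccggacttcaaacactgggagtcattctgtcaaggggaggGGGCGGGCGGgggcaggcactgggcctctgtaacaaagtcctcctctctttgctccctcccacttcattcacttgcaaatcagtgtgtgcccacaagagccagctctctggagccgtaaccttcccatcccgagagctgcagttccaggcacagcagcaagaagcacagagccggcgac
The motifs were TGANTCA of AP-1, GGAATG of TEAD factors, the GC box GGGCGG and the E-box CACGTG. Itgax held 1 AP-1 match that begins 56 bases before the start, and of the 17 tested members with a RefSeq promoter it was the 1 with this motif, which 7.33% of all 27457 promoters hold. Itgb8 held 1 TEAD match that begins 183 bases before the start and 1 GC box, and 4 of the 17 members had the TEAD motif (Itga2b, Itga3, Itgb1 and Itgb8), against 13.9% of all promoters. Cdh6 held 2 overlapping GC boxes that begin 129 and 125 bases before the start, and 11 of the 17 members had a GC box, against 34.9% of all promoters. The E-box was in 0 of the 17 and in 6.65% of all promoters. The 27457 promoters were not limited to genes tested here, and G and C made up 52.3% of their bases at the median. In the 17 members this share ran from 46.3% (Itgam) to 76.7% (Itgb5), and no enrichment of a motif was tested. A match is a description of the letters and not a bound site.

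Cadherin genes moved in both directions against cells alone. The neural cadherin gene Cdh2 was lower in every co-culture. Cdh2 had 46.6, 45.0 and 44.01 CPM in MiaTAM, 45.2, 45.2 and 43.9 in BxTAM and 36.4, 32.9 and 35.5 in MDM co-cultures, against 55.6, 53.99 and 54.7 in cells alone. The 3 groups lay below cells alone without overlap, and the fall was deepest in MDM co-culture, with log2 changes of -0.28 ± 0.05 in MiaTAM, -0.29 ± 0.05 in BxTAM and -0.65 ± 0.05 in MDM co-cultures (adjusted p = 1.3e-09 to 1.0e-04). Cdh3 had 110.3, 119 and 111 CPM in MiaTAM, 121, 113 and 116 in BxTAM and 91.1, 98.5 and 92.2 in MDM co-cultures, against 124, 130.2 and 128 in cells alone. Cdh3 also lay lowest in MDM co-culture and below cells alone in all 3, by log2 -0.17 ± 0.04 in MiaTAM, -0.13 ± 0.04 in BxTAM and -0.44 ± 0.04 in MDM co-cultures (adjusted p = 2.6e-08 to 0.0142). The BxTAM call was small, and it missed the threshold without cells-alone library 2 or BxTAM library 2 (adjusted p = 0.0747 to 0.0794). Cdh17 had 3.55, 2.95 and 2.82 CPM in MiaTAM, 3.701, 3.62 and 3.02 in BxTAM and 3.52, 3.18 and 2.52 in MDM co-cultures, against 5.62, 4.997 and 5.003 in cells alone. Cdh17, the intestinal LI-cadherin whose short tail lacks the catenin-binding part, changed by log2 -0.74 ± 0.15 in MiaTAM, -0.59 ± 0.14 in BxTAM and -0.77 ± 0.15 in MDM co-cultures (adjusted p = 1.2e-04 to 0.00151).

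The type II cadherin genes Cdh6 and Cdh24 rose in all 3 co-cultures. Cdh6 had 50.2, 49.4 and 52.3 CPM in MiaTAM, 58.6, 57.95 and 55.1 in BxTAM and 52.3, 50.2 and 52.2 in MDM co-cultures, against 29.3, 28.4 and 27.8 in cells alone. Cdh6, a cadherin of neural crest and kidney, was higher by log2 0.83 ± 0.05 in MiaTAM, 1.00 ± 0.05 in BxTAM and 0.85 ± 0.05 in MDM co-cultures (adjusted p = 1.5e-12 to 3.1e-11), with all 9 co-culture libraries at 49.4 CPM or more. Cdh24 had 43.4, 51.2 and 42.2 CPM in MiaTAM, 39.4, 40.99 and 43.1 in BxTAM and 42.1, 43.4 and 40.1 in MDM co-cultures, against 33.1, 33.9 and 29.3 in cells alone. Cdh24 changed by log2 0.50 ± 0.07 in MiaTAM, 0.36 ± 0.07 in BxTAM and 0.38 ± 0.07 in MDM co-cultures (adjusted p = 5.6e-06 to 3.4e-04). Cdh1, the epithelial cadherin, had at most 1.25 CPM in a library and was called higher in MDM co-culture at log2 0.79 ± 0.32 (adjusted p = 0.0346). That call rested on 56 counts against 32, and it missed the threshold without cells-alone library 2 or 3 or MDM library 2 or 3 (adjusted p = 0.0552 to 0.15). It also missed the threshold with no filter on low counts and in DESeq2 (adjusted p = 0.0521 and 0.168). The MiaTAM and BxTAM values of Cdh1 against cells alone were log2 0.21 ± 0.35 and -0.49 ± 0.39 (adjusted p = 0.61 and 0.288). Epithelial markers, of which Epcam, Krt19 and Cldn7 had 0 counts, summed to 43.2 to 44.6 CPM in MiaTAM, 28.6 to 33.3 in BxTAM and 38.2 to 40.9 in MDM co-cultures, against 36.4 to 37.4 in cells alone. Within this sum Cldn4 averaged 21.9, 10.2 and 13.4 CPM in MiaTAM, BxTAM and MDM co-cultures, against 16.1 CPM in cells alone. Krt8 averaged 4.03, 3.76 and 8.22 CPM, against 2.93 CPM in cells alone, and Krt7 had group means of 17.55 to 17.96 CPM. Endothelial markers beside Cdh5, which had 59 counts in all, summed to 14.3 to 15.3 CPM in MiaTAM, 12.5 to 13.7 in BxTAM and 13.7 to 14.1 in MDM co-cultures, against 9.601 to 10.9 in cells alone, with Cldn5 at 0. In that list Vwf averaged 9.81, 9.09 and 10.96 CPM in MiaTAM, BxTAM and MDM co-cultures, against 4.36 CPM in cells alone. Kdr and Tek lay the other way, Kdr at 1.54, 0.769 and 0.872 CPM in MiaTAM, BxTAM and MDM co-cultures, against 2.27 CPM in cells alone, and Tek at 3.28, 3.06 and 2.02 CPM, against 3.75 CPM in cells alone.

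**Figure D4:**
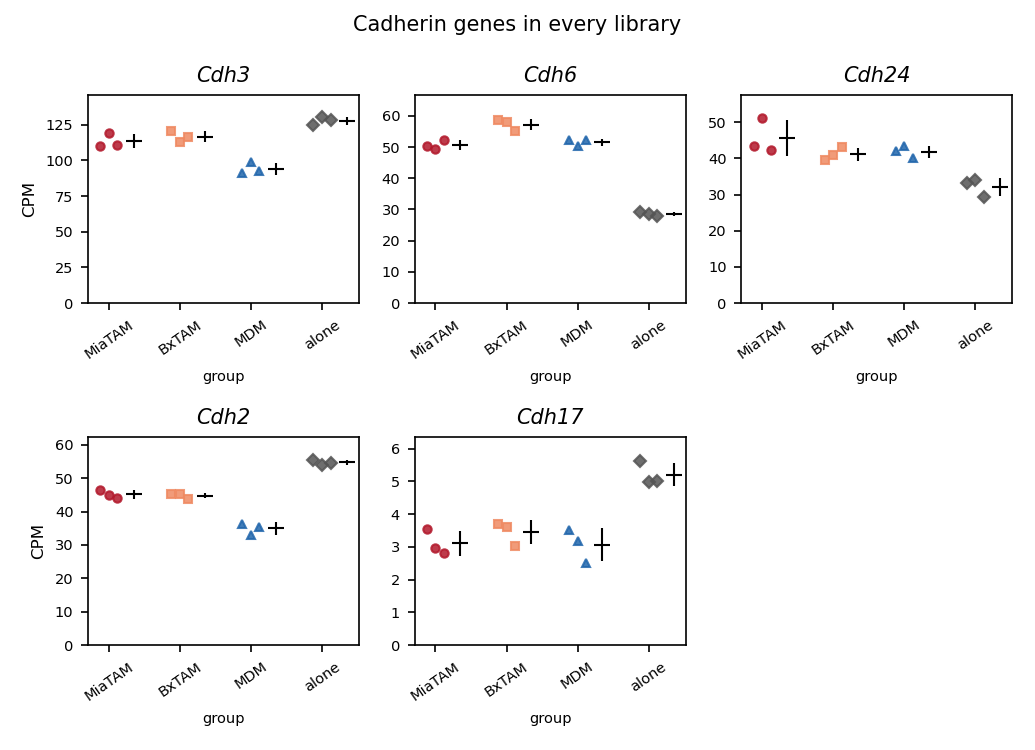
CPM of the 5 cadherin genes that reached 1 CPM, in each library (symbols), with the mean and SD of each group (black, n = 3), on axes that start at 0. Cdh2, Cdh3 and Cdh17 lie lower and Cdh6 and Cdh24 higher in co-cultures, and for Cdh2 and Cdh3 the MDM libraries are the lowest.

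The make-up of the cadherins differed between co-cultures and cells alone when read per length. Of the summed cadherin FPKM, Cdh3 made up 37.1 ± 0.294% in MiaTAM, 37.4 ± 0.909% in BxTAM and 34.4 ± 1.15% in MDM co-cultures, against 46.5 ± 1.23% in cells alone. The share of Cdh6 was 25.6 ± 1.51% in MiaTAM, 28.4 ± 0.776% in BxTAM and 29.2 ± 0.9602% in MDM co-cultures, against 16.04 ± 0.339% in cells alone. The FPKM ratio of Cdh6 to Cdh2 was 2.05 ± 0.107 in MiaTAM, 2.34 ± 0.0384 in BxTAM and 2.701 ± 0.0835 in MDM co-cultures, against 0.953 ± 0.0196 in cells alone, so Cdh6 exceeded Cdh2 per length in the co-cultures. Of the summed beta subunit FPKM, Itgb5 held 10.4 ± 0.622% in MiaTAM, 9.23 ± 0.223% in BxTAM and 13.1 ± 0.671% in MDM co-cultures, against 6.99 ± 0.224% in cells alone, and Itgb1 held nearly all of the rest. Among alpha subunits the share of Itga3 was 69.95 ± 0.853% in MiaTAM, 67.7 ± 0.845% in BxTAM and 71.5 ± 0.714% in MDM co-cultures, against 72.2 ± 0.215% in cells alone, without Itga6 in the sum. Summed alpha FPKM was 791 ± 25.7 in MiaTAM, 733 ± 7.87 in BxTAM and 775 ± 17.8 in MDM co-cultures, against 608 ± 13.8 in cells alone. With 3 libraries against 3, an exact permutation test of a single such value cannot go below a p of 0.10, so these shares are given as descriptions.

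The TAM co-cultures were next set against MDM co-culture, which asks what induction of the macrophages by tumour medium goes with. Cdh2, Cdh3 and Itgb1, which were lowest in MDM co-culture, were higher in both TAM co-cultures, and Itgb5 and Itgax were lower. In MiaTAM co-culture 7 of 22 tested members were called higher and 4 lower, against 19.8% and 21.1% of all genes. In BxTAM co-culture 7 were called higher and 4 lower, against 17.4% and 17.3% of all genes. That is 11 of 22 members in each comparison, against 41.0% and 34.7% of all genes for either direction. The changes were small, with 0 members in MiaTAM and 1 in BxTAM co-culture at 2-fold or more, against 1.59% and 1.75% of all genes. The 2 comparisons share the MDM libraries, and these MDM libraries also entered the comparison with cells alone.

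**Figure D5:**
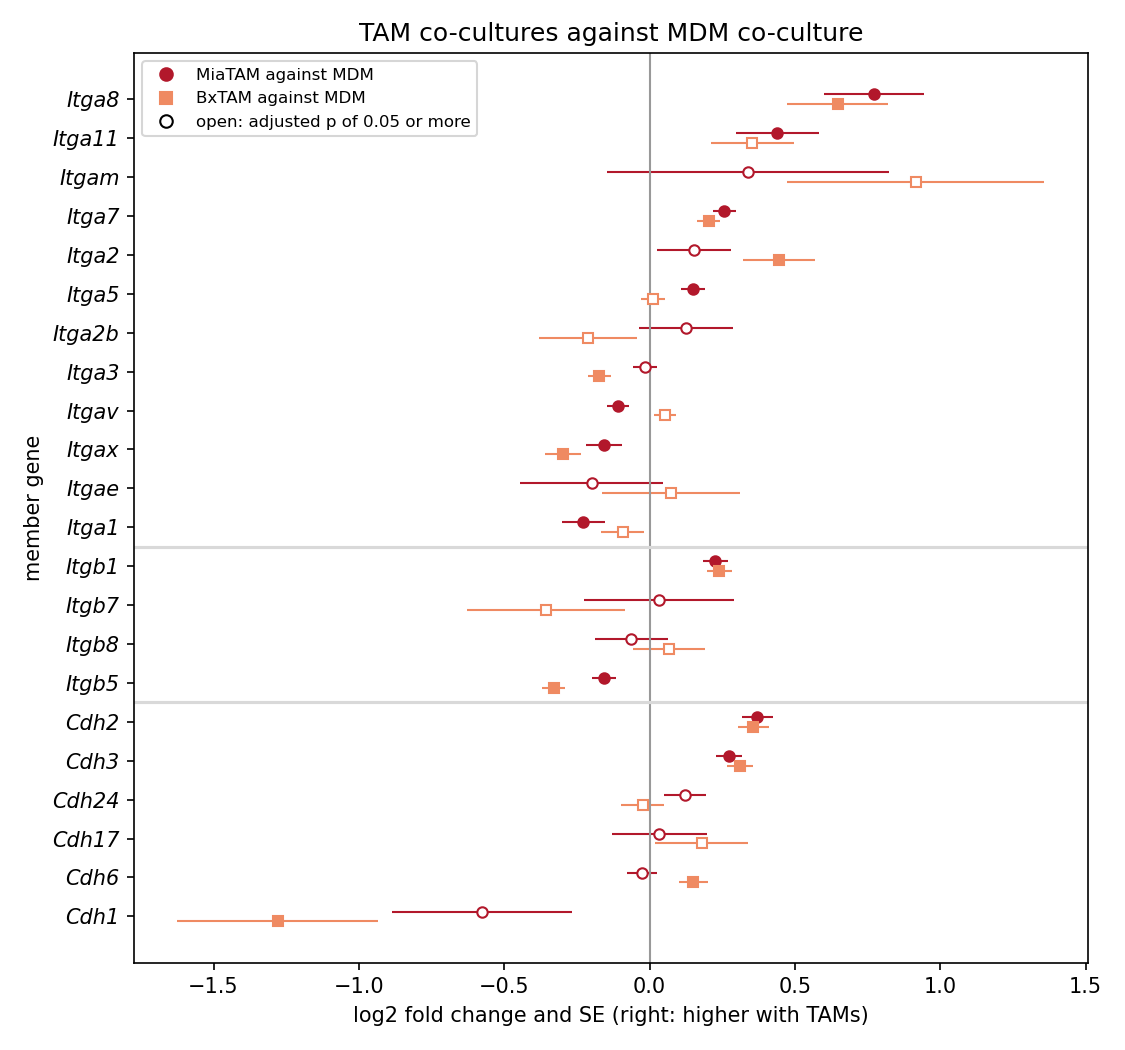
Log2 fold change with SE of the 22 tested members in MiaTAM and BxTAM co-cultures against MDM co-culture (3 libraries each), with filled symbols for an adjusted p under 0.05. Cdh2, Cdh3, Itgb1, Itga7 and Itga8 lie to the right in both, between 0.20 and 0.77, and Itgb5 and Itgax to the left, between -0.33 and -0.16.

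Cdh2 was higher by log2 0.37 ± 0.05 in MiaTAM and 0.36 ± 0.05 in BxTAM co-cultures (adjusted p = 1.6e-05 and 3.3e-05), so that TAM libraries, at 43.9 to 46.6 CPM, lay between MDM libraries, at 32.9 to 36.4 CPM, and cells alone, at 54.0 to 55.6 CPM. Cdh3 was higher by log2 0.27 ± 0.04 in MiaTAM and 0.31 ± 0.04 in BxTAM co-cultures (adjusted p = 6.2e-05 and 1.7e-05) and also lay between the MDM libraries and cells alone. Itgb1 was higher by log2 0.23 ± 0.04 in MiaTAM and 0.24 ± 0.04 in BxTAM co-cultures (adjusted p = 2.4e-04 and 1.7e-04). Itgb5 changed by -0.16 ± 0.04 in MiaTAM and -0.33 ± 0.04 in BxTAM co-cultures on the log2 scale (adjusted p = 0.00366 and 2.1e-06), and stayed above cells alone in every TAM library. Itgax changed by -0.30 ± 0.06 in BxTAM co-culture (adjusted p = 8.7e-04). Its MiaTAM value of -0.16 ± 0.06 passed narrowly (adjusted p = 0.0454), and it missed the threshold without MDM library 1 or 2 or MiaTAM library 1 or 3 (adjusted p = 0.105 to 0.173). That value also missed the threshold with DESeq2 size factors, with no filter, with the 6 libraries alone and in DESeq2 (adjusted p = 0.0536, 0.0619, 0.0719 and 0.0958).

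Of the 12 tested alpha genes, 4 were called higher and 3 lower in MiaTAM co-culture, against 19.8% and 21.1% of all genes. In BxTAM co-culture 3 of the 12 were called higher and 2 lower, against 17.4% and 17.3% of all genes. Itga7 was higher by log2 0.26 ± 0.04 in MiaTAM and 0.20 ± 0.04 in BxTAM co-cultures (adjusted p = 3.3e-05 and 5.2e-04), and its levels lay highest in the 2 TAM groups. Itga8 was higher by 0.77 ± 0.17 in MiaTAM and 0.65 ± 0.17 in BxTAM co-cultures (adjusted p = 0.00116 and 0.00657), and its TAM libraries, at 4.48 to 6.45 CPM, lay above all MDM libraries. Itga11 was called in MiaTAM co-culture at log2 0.44 ± 0.14 (adjusted p = 0.0181), and it missed the threshold without MDM library 2 or 3 or MiaTAM library 1 (adjusted p = 0.0504 to 0.111), and in DESeq2 (adjusted p = 0.0605). The BxTAM value of Itga11, 0.35 ± 0.14, was not called (adjusted p = 0.0637), and it passed without MDM library 1 (adjusted p = 0.0263). Itga2 was called in BxTAM co-culture at log2 0.44 ± 0.12 (adjusted p = 0.00791), and it missed the threshold without BxTAM library 2 (adjusted p = 0.0504). Itga2 in MiaTAM co-culture had a log2 value of 0.15 ± 0.13 (adjusted p = 0.356).

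Some members were called with 1 kind of TAM. Itga5 was higher in MiaTAM co-culture by log2 0.15 ± 0.04 (adjusted p = 0.00557), while its BxTAM value was 0.01 ± 0.04 (adjusted p = 0.846). Itga3 changed in BxTAM co-culture by log2 -0.17 ± 0.04 (adjusted p = 0.00238), with a MiaTAM value of -0.02 ± 0.04 (adjusted p = 0.781). Cdh6 was called higher in BxTAM co-culture at log2 0.15 ± 0.05 (adjusted p = 0.0251), but it missed the threshold without MDM library 2 or BxTAM library 1 or 2 (adjusted p = 0.0785 to 0.10), and with no filter or in DESeq2 (adjusted p = 0.0584 and 0.0509). Its MiaTAM value was -0.03 ± 0.05 (adjusted p = 0.717). Itga1 was called lower in MiaTAM co-culture at log2 -0.23 ± 0.07 (adjusted p = 0.0176), and it missed the threshold without MDM library 1 or MiaTAM library 2 (adjusted p = 0.0821 to 0.0955), with a BxTAM value of -0.09 ± 0.07 (adjusted p = 0.354). Itgav was called lower in MiaTAM co-culture at log2 -0.11 ± 0.04 (adjusted p = 0.0292), and it missed the threshold without MDM library 1 or 2 or MiaTAM library 1 or 2 (adjusted p = 0.0746 to 0.0959) and with the 6 libraries alone (adjusted p = 0.0892). Its BxTAM value was 0.05 ± 0.04 (adjusted p = 0.30). Cdh1 was the member past 2-fold, at log2 -1.28 ± 0.34 (adjusted p = 0.00675) in BxTAM co-culture on 22 counts against 56 in MDM, and its MiaTAM value was -0.58 ± 0.31 (adjusted p = 0.146). Itgb8, Itgb7, Itga2b, Cdh17 and Cdh24 were called with neither TAM, although the BxTAM value of Itga2b, -0.21 ± 0.17, passed without BxTAM library 3 (adjusted p = 0.0236).

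MiaTAM and BxTAM co-cultures were then compared directly, which is the test of any difference between the 2 kinds of TAM. Of 22 tested members, 3 were called higher and 2 lower in MiaTAM co-culture, against 11.0% and 13.3% of all genes, which is 22.7% of members against 24.2% of all genes for either direction. At 2-fold or more the count was 0, against 0.267% of all genes. Leaving out BxTAM library 2 or MiaTAM library 2 left 3 calls each. Itgb5 and Itga3 were higher in MiaTAM by log2 0.17 ± 0.04 (adjusted p = 0.0041) and 0.16 ± 0.04 (adjusted p = 0.00851). Itga5 was higher by 0.14 ± 0.04 (adjusted p = 0.0184), and it missed the threshold without BxTAM library 2 or 3 or MiaTAM library 2 or 3 (adjusted p = 0.0524 to 0.0749). Itgav was -0.16 ± 0.04 on the log2 scale (adjusted p = 0.00476), with 208 to 221 CPM in MiaTAM libraries and 233 to 245 CPM in BxTAM libraries. Cdh6 was -0.18 ± 0.05 (adjusted p = 0.0154), and it missed the threshold without BxTAM library 1 or 2 or MiaTAM library 2 (adjusted p = 0.0506 to 0.0597). For Cdh2 the log2 difference was 0.01 ± 0.05, with a 95% confidence interval from -0.11 to 0.14, and for Itgb1 it was -0.01 ± 0.04, from -0.11 to 0.08. Itga2, at log2 -0.29 ± 0.12 (adjusted p = 0.087), was not called but passed without BxTAM library 1 (adjusted p = 0.0215). Itga2b, at log2 0.34 ± 0.17 (adjusted p = 0.152), was not called but passed without BxTAM library 3 (adjusted p = 0.0115).

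Genes whose products work with integrins, many of them links to actin, were followed as a list of 30, of which 27 were tested. Against cells alone, 9 rose and 8 fell in MiaTAM, 7 and 11 in BxTAM, and 6 and 14 in MDM co-cultures, where 65.1%, 60.9% and 65.1% of all genes were called. The list medians were 0.0064, -0.03 and -0.13 on the log2 scale. Flna, the actin crosslinker filamin A, changed by log2 -0.82 ± 0.04 in MiaTAM, -0.94 ± 0.04 in BxTAM and -0.73 ± 0.04 in MDM co-cultures. The parvins, which bind integrin-linked kinase, went opposite ways: Parva changed by -0.74 ± 0.04, -0.61 ± 0.04 and -0.48 ± 0.04 in MiaTAM, BxTAM and MDM co-cultures, and Parvb by 0.71 ± 0.04, 0.59 ± 0.04 and 0.46 ± 0.04. Tln1, the talin that activates integrins, rose by 0.42 ± 0.04 in MiaTAM, 0.40 ± 0.04 in BxTAM and 0.39 ± 0.04 in MDM co-cultures. Against MDM co-culture, 11 of 27 rose and 2 fell in MiaTAM co-culture and 7 rose and 6 fell in BxTAM co-culture, where 41.0% and 34.7% of all genes were called. Tgfb1i1, a paxillin relative at focal adhesions, was higher by log2 0.52 ± 0.07 in MiaTAM and 0.56 ± 0.07 in BxTAM co-cultures. When MiaTAM was set against BxTAM co-culture, 9 of 27 were higher and 5 lower, where 24.2% of all genes were called.

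Catenins and other cadherin partners were a list of 24 genes, of which 22 were tested. Against cells alone, 11 rose and 7 fell in MiaTAM, 10 and 6 in BxTAM, and 11 and 6 in MDM co-cultures, where 65.1%, 60.9% and 65.1% of all genes were called in either direction. Ctnnb1, the beta-catenin that binds the tail of classical cadherins, changed by log2 -0.51 ± 0.04 in MiaTAM, -0.50 ± 0.04 in BxTAM and -0.47 ± 0.04 in MDM co-cultures. Its relative Jup, or gamma-catenin, averaged 26.6, 21.9 and 26.9 CPM in MiaTAM, BxTAM and MDM co-cultures against 10.4 CPM in cells alone, with log2 changes of 1.36 ± 0.07, 1.08 ± 0.07 and 1.38 ± 0.07. Ctnnd2, of the p120 catenin family, rose by 0.91 ± 0.06, 0.86 ± 0.06 and 0.53 ± 0.06. Against MDM co-culture, 4 rose and 2 fell in MiaTAM and 4 rose and 6 fell in BxTAM co-cultures, out of 22 tested, where 41.0% and 34.7% of all genes were called. Ctnnd2 was again higher, by log2 0.38 ± 0.05 and 0.33 ± 0.05. Between the TAM co-cultures, 3 partners were higher in MiaTAM, led by Jup at log2 0.28 ± 0.06, and 1 was lower, out of 22 tested, where 24.2% of all genes were called.

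In the build of the table, Rnor_6.0, Itgax lies on chromosome 1, 199555722 to 199576932, Itgb8 on chromosome 6, 147094097 to 147172813 and Itgb5 on chromosome 11, 70056500 to 70172372. Cdh2 lies on chromosome 18, 8146971 to 8360684, Cdh6 on chromosome 2, 63101739 to 63166509 and Cdh3 on chromosome 19, 38669230 to 38719677, on the same chromosome as Cdh1 on chromosome 19, 38768467 to 38838395. The table gives 1 value for each gene, so exons, introns and untranslated parts were not told apart.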

How the data were processed

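Gene expression was measured by RNA sequencing in 12 libraries of rat Schwann cells, 3 in each of 4 groups read from the sample titles and source names. The library kit keeps strand, per the labels' protocols. The tools were HISAT2, StringTie 1.3.0 and CASAVA on build Rnor_6.0, per the submitters' processing notes. Not given in the sources used here are the counting tool, the annotation release and the strand setting. The authors deposited raw counts per gene and FPKM values, which are scaled by gene length and library total, per the file headers. Depth was 16555215 to 21506669 counts.

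From the counts, edgeR 4.0.16 in R 4.3.3 kept 12360 genes with filterByExpr by group, applied TMM factors of 0.98 to 1.01 and fitted all 12 libraries with 1 mean per group in a quasi-likelihood model. Benjamini-Hochberg adjustment ran over all genes tested, and an adjusted p under 0.05 was called. The SE of a log2 change is its size over the root of the F statistic. Its 95% intervals use the t distribution on the 8 residual degrees of freedom. The fit was tested on simulated data. No library duplicated another of its own group, and libraries of different groups were not checked for this. Alternatives were DESeq2 1.42.0 size factors, its Wald test, no filter, a replicate block, the 6 libraries compared alone, a 2-fold rule and leaving out each library.

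Members, lists and rules were chosen with earlier results of these data known. Every member with 1 CPM in a group is named. Values in every library are given for the 14 with the largest called change without overlap, the 3 alpha, beta and cadherin genes with the highest FPKM, and 8 fixed genes. Lists of 30 integrin adaptors, 24 cadherin partners (4 matched through RefSeq synonyms, 1 on several genes and left out) and Schwann, macrophage, lymphocyte, epithelial, fibroblast and endothelial markers were matched by symbol; of the Schwann list, 6 of 11 reached 1 CPM and the sum was 115 to 119 CPM in MiaTAM, 106 to 112 in BxTAM and 105 to 108 in MDM co-cultures, against 109 to 115 in cells alone. Promoters are from RefSeq, build GRCr8. The design text counts 3 TAM kinds, of which 2 are analysed here.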

Additional observations from a re-analysis of the deposited data

Results flagged for a closer look

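5 of 22 tested members, or 22.7%, differed between the 2 kinds of TAM co-culture by a direct test, against 24.2% of all genes. The difference is also that of their changes against the shared MDM libraries (edgeR's quasi-likelihood test, MiaTAM minus BxTAM on the log2 scale). Itgb5 differed by 0.17 ± 0.04 (adjusted p = 0.0041), with 349.6, 363 and 359.5 CPM in MiaTAM and 329.5, 321 and 301 CPM in BxTAM libraries. Itga3 differed by 0.16 ± 0.04 (adjusted p = 0.00851) and Itga5 by 0.14 ± 0.04 (adjusted p = 0.0184), both higher in all 3 MiaTAM libraries. Itgav differed by -0.16 ± 0.04 (adjusted p = 0.00476) and Cdh6 by -0.18 ± 0.05 (adjusted p = 0.0154), both lower in all 3 MiaTAM libraries. The Itga5 value missed the threshold without BxTAM library 2 or 3 or MiaTAM library 2 or 3 (adjusted p = 0.0524 to 0.0749), and the Cdh6 value without BxTAM library 1 or 2 or MiaTAM library 2 (adjusted p = 0.0506 to 0.0597).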

How the results depend on the processing

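The counts of called members kept within 1.5 times of those reported under DESeq2 size factors, the DESeq2 Wald test, no filter on low counts and a fit of the 6 libraries compared. No sign was seen that the replicate numbers of the labels pair the libraries. Deviations of same-numbered libraries correlated between -0.123 and 0.109, and 3 of 12 libraries were closest to their own number. With 3 libraries per group, this cannot show whether same-numbered libraries were handled together. With the number as a replicate block the counts were 19, 18, 16, 11, 11 and 5 for MDM, BxTAM and MiaTAM against alone, BxTAM and MiaTAM against MDM, and MiaTAM against BxTAM, and the 1 changed call was Itga8 in MDM co-culture (adjusted p = 0.0482). Leaving out 1 library gave 18 to 20, 17 to 19, 17 to 19, 9 to 13, 8 to 11 and 3 to 6 calls in the same order. A 2-fold rule left 6, 7, 6, 1, 0 and 0, a stricter rule by construction.

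Of 132 member values over the 6 comparisons, 79 were called, where 24.2% to 65.1% of all genes were called per comparison in either direction. The 79 include the Itgb7 calls against cells alone, which are no support for a difference. Of the 79, 11 lost the call under some setting other than the 2-fold rule while keeping their direction. Reversals came only when 1 library was left out, in 15 values that were not called, and the cause was not tested. Their log2 ranges were as follows: for BxTAM against alone, Itgae from -0.209 to 0.0741; for MiaTAM against alone, Itgam from -0.563 to 0.363; for BxTAM against MDM, Cdh24 from -0.0552 to 0.0066, Itga5 from -0.022 to 0.0431, Itgae from -0.0671 to 0.219, Itgb8 from -0.0423 to 0.149; for MiaTAM against MDM, Cdh17 from -0.104 to 0.14, Itga3 from -0.0504 to 0.00314, Itgam from -0.337 to 0.589, Itgb7 from -0.0521 to 0.164, Itgb8 from -0.172 to 0.0225; for MiaTAM against BxTAM, Cdh2 from -0.0086 to 0.0328, Itga11 from -0.0311 to 0.176, Itga8 from -0.044 to 0.22, Itgb1 from -0.0467 to 0.0279. Members under 1 CPM rest on few counts, which limits what their values can show.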
